A study of Mus musculus with 4 samples.

Results

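The 35 genes described here encode the core autophagy machinery, the proteins that start, grow, coat and load the autophagosome and the transcription factors that set its supply. They were taken by symbol from the 55487 genes of the deposited table by their role in the pathway. Autophagy encloses cytoplasm in a double membrane and delivers it to the lysosome. The ULK1 kinase complex starts the process, a lipid kinase complex marks the site with phosphatidylinositol 3-phosphate, and ATG9 and ATG2 proteins bring lipid to the growing membrane. Ubiquitin-like conjugation then couples ATG8 proteins to that membrane, where cargo receptors bind them. Tumour cells use the pathway under low oxygen and nutrient shortage, and HIF-1alpha, the product of Hif1a and a transcription factor that oxygen keeps low, is known to induce some mitophagy genes.

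Poly(A) RNA was sequenced from tumours of AXT cells, a mouse osteosarcoma line. The cells were HIF-1alpha KO (3 libraries, with the column names c11, c15 and c22) or Mock AXT with a WT genotype (1 library). In both groups 2000000 cells were put in matrigel and injected into C57BL/6scid mice, and tumours were harvested on day 1. Mock had no replicate, the labels do not say whether tumours came from separate animals, and 2 of the 3 knockout lines share a number (KO1-1 and KO1-2, beside KO2), so p-values measure only the spread between these libraries. The columns c11, c15 and c22 could not be matched to single lines. Total counts were 12910058, 13193264 and 13081007 in the knockout libraries and 12383719 in mock, so that a count of 0 allows up to 0.232, 0.227 and 0.229 CPM (counts per 1000000 counted reads) in the knockout libraries and 0.242 CPM in mock, for counting error only.

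Hif1a itself was at 104 CPM in c11, 98.7 in c15 and 22.3 in c22, against 107 CPM in mock (log2 fold change -0.52, SE 0.78, adjusted p = 1.00 by edgeR's quasi-likelihood test with Benjamini-Hochberg adjustment). Its RNA was low in c22, while c11 and c15 lay just below mock. The kind of edit is not given in the labels, and an edit that stops the protein can leave the RNA in place, so RNA does not check the knockout of c11 and c15. Of 10 osteoblast-lineage markers, 9 had counts in every library, and Bglap, which encodes osteocalcin, was at 0 in c11 and at most 1.45 CPM elsewhere. Their summed level was 3440 CPM in c11, 3616 in c15 and 8658 in c22, against 4123 CPM in mock, so it was above mock in c22 only. Their log2 fold changes ranged from -3.09 to 1.59, with 2 above 0. The median log2 fold change was -0.76, and 5 of the 10 were below mock in all 3 knockout libraries and 1 above. Runx2, the lineage's transcription factor, was among those below, at 133 CPM in c11, 139 in c15 and 116 in c22, against 245 CPM in mock. Dmp1, an osteocyte matrix gene, was at 0.62 CPM in c11, 16.4 in c15 and 9.33 in c22, against 75.5 CPM in mock. RNA of host tissue markers differed between the libraries. The summed level of 17 skeletal muscle markers was 9.45 CPM in c11, 3.11 in c15 and 38.8 in c22, against 155 CPM in mock, with 6, 7 and 2 of them at 0 in those knockout libraries and none at 0 in mock. Myh4, a fast muscle myosin, was at 0 in c11 and c15, at 5.05 CPM in c22 and at 31.3 CPM in mock. The 9 erythroid markers summed to 20.8, 21.1 and 59.8 CPM in the knockout libraries, against 138 CPM in mock. The 12 macrophage markers, none at 0 in any library, summed to 260, 367 and 465 CPM in the knockout libraries, against 839 CPM in mock. A large part of that sum was Lyz2, at 142 CPM in c11, 188 in c15 and 266 in c22, against 554 CPM in mock. Of the 12, 10 were below mock in all 3 knockout libraries (83.3%, beside 22.5% of all tested genes) and 0 above. Neutrophil markers summed to between 4.65 and 16.5 CPM in knockout libraries and 10.2 CPM in mock. Endothelial markers summed to at most 2.43 CPM in knockout libraries and 4.52 CPM in mock, and adipocyte markers to at most 0.77 CPM in knockout libraries and 1.13 CPM in mock. The 8 host fibroblast markers summed to 237 CPM in c11, 143 in c15 and 297 in c22, against 168 CPM in mock, but most were lower. Their median log2 fold change was -0.80, with 4 below mock in all 3 knockout libraries and 0 above, and the sum was carried by Pdgfrb, at 213 CPM in c11, 47.2 in c15 and 196 in c22, against 47.5 CPM in mock. All these cells carry autophagy genes, and the part of host RNA in the values below was not tested. In such bulk tissue, fewer cells of a type and less RNA per cell cannot be told apart.

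All 35 genes were transcribed in every library, between 4.36 CPM and 862 CPM, and all 35 passed the filter on low counts. None was called at an adjusted p under 0.05 by edgeR's quasi-likelihood test, beside 0.0% of the 15706 tested genes called higher and 0.00637% called lower. DESeq2 also called none of the 35, where it called 0.306% of all tested genes higher and 0.42% lower. At an unadjusted p under 0.05 edgeR gave 1 of the 35 higher, Sqstm1, and 0 lower, beside 1.12% and 2.56% of all tested genes. The smallest adjusted p of the 35 was 0.911. In data simulated with this design, edgeR recovered 29 of 100 genes changed 4-fold, a change larger than that fitted for any of the 35.

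The direction leaned towards higher values in the knockout libraries. Of the 35 genes, 16 were above mock in all 3 knockout libraries (45.7%) and 3 were below it in all 3 (8.57%), with the other 16 on both sides. Over all tested genes 21.0% were above mock in all 3 and 22.5% below, and among the 11315 genes with a mean of at least 5 CPM, as all 35 have, the shares were 21.5% and 20.4%. With library sizes scaled by TMM the counts were 16 above and 4 below. A fitted log2 fold change above 0 was found for 28 of the 35 (80%), beside 54.5% of all tested genes. The median was 0.34 over the 35 and 0.05 over all tested genes. Without c22 the median over the 35 was 0.19, and over all genes then tested 0.04. The counts describe these libraries and carry no test, since all 3 ratios share the single mock library.

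**Figure D1:**
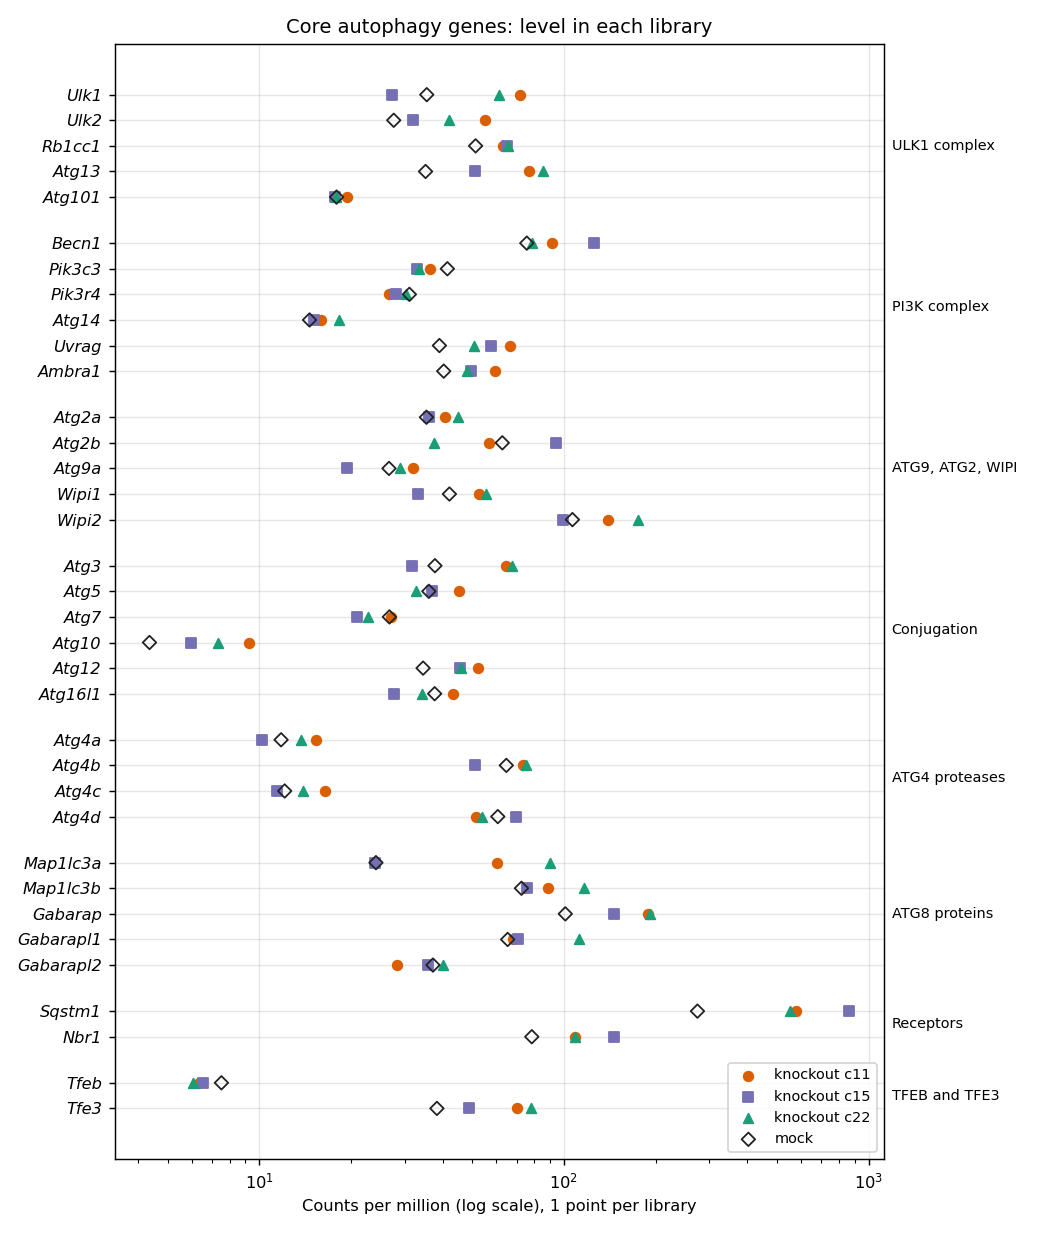
Level of each of the 35 genes in each library, in CPM on a log axis, with genes grouped by role. Filled points are the knockout libraries c11, c15 and c22 and the open diamond is mock. Sqstm1 lies at the right with its 3 knockout points apart from mock, while 16 genes have knockout points on both sides of the mock diamond.

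The knockout libraries differed among themselves. The median log2 ratio of the 35 genes to mock, from CPM with 0.5 added, was 0.31 in c11, 0.04 in c15 and 0.34 in c22, where the medians over all tested genes were 0.03, -0.01 and -0.03. In c11, 29 of the 35 were above mock, in c15 19 and in c22 26, beside 51.7%, 48.8% and 47.8% of all tested genes. By that median, c15 lay nearest to mock. It held the lowest knockout value for 22 of the 35 genes (62.9%), beside 37.0% of all tested genes, and the highest for 6 (17.1%), beside 35.2%. For 9 genes c15 was below mock while c11 and c22 were above it, namely Ulk1, Atg9a, Wipi1, Wipi2, Atg3, Atg4a, Atg4b, Atg4c and Map1lc3a. The summed level of all 35 was nevertheless much the same in the 3, at 2496 CPM in c11, 2510 in c15 and 2534 in c22, against 1707 CPM in mock. Sqstm1 alone made up 23.1%, 34.4% and 21.8% of it in those libraries and 16.1% in mock. Without Sqstm1, left out after its values were seen, the sums were 1920 CPM in c11, 1647 in c15 and 1981 in c22, against 1433 CPM in mock.

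**Figure D2:**
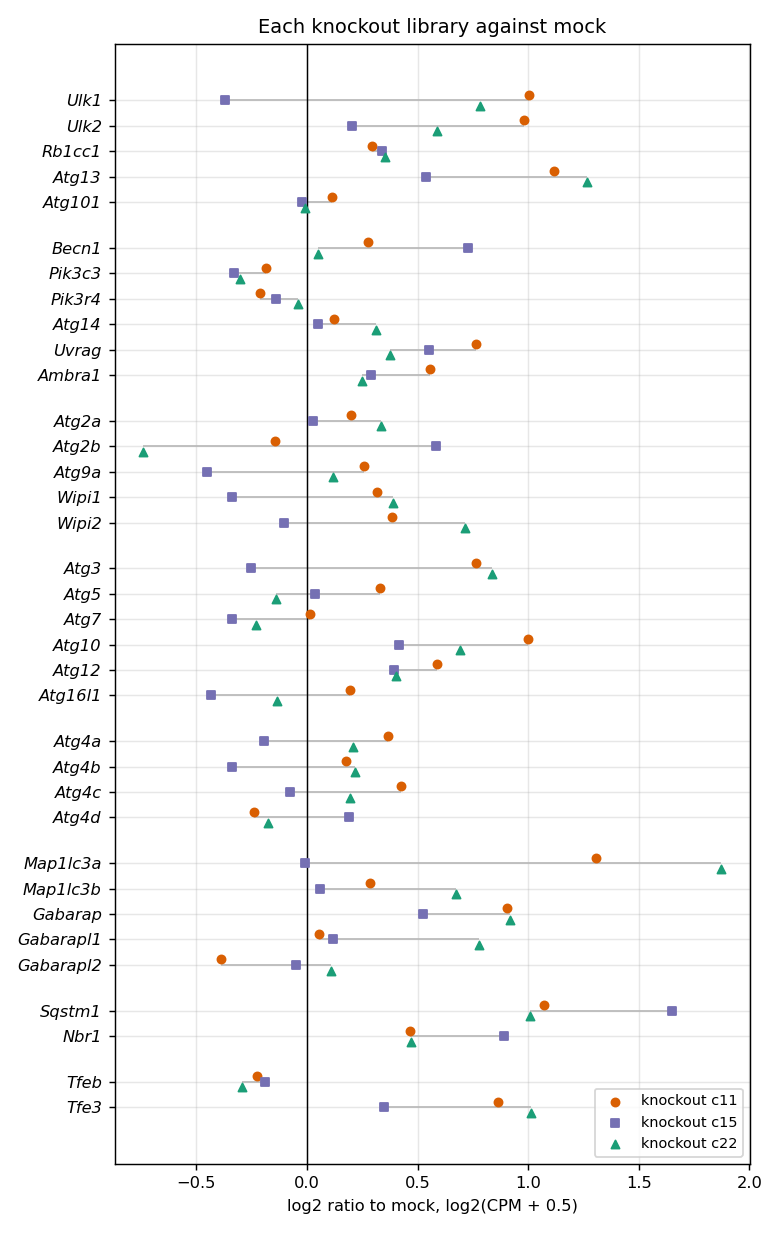
The log2 ratio of each knockout library to mock for the 35 genes, from CPM with 0.5 added. The grey line joins the lowest and the highest knockout library of a gene. The c15 squares lie left of the c11 and c22 points for 22 genes, and right of both for 6 genes, among them Sqstm1, Nbr1 and Becn1.

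The cargo receptors, with 2 genes, were the role with the largest median log2 fold change, 0.96. The 13 further receptors and adaptors of the wider set described below had a median of 0.24. Of those 13, 6 were above mock in all 3 knockout libraries (46.2%, beside 21.0% of all tested genes) and 2 below (15.4%, beside 22.5%). Whether the 2 receptors differed from the 13 was not tested. Sqstm1 (chr11:50199366-50210827, minus strand, GRCm38) encodes p62, which binds ubiquitinated cargo and ATG8 proteins, is itself degraded by autophagy and is also a known transcriptional target of NRF2. It was at 576 CPM in c11, 862 in c15 and 553 in c22, against 274 CPM in mock, a mean of 664 ± 172 CPM (SD, n = 3) and 2.42 times the mock level. Every knockout library lay above mock, and c15 was the highest of them. The log2 fold change was 1.28 (SE 0.39), with an unadjusted p of 0.0176, an adjusted p of 0.911 by edgeR and an adjusted p of 0.214 by DESeq2. Nbr1 (chr11:101552149-101581951), which encodes a receptor of similar build, was at 108 CPM in c11, 146 in c15 and 109 in c22, against 78.4 CPM in mock. Its knockout libraries also lay above mock with c15 highest, and its log2 fold change was 0.63 (SE 0.35, adjusted p = 1.00 by edgeR).

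The sequence before the RefSeq start of Sqstm1 is shown because this gene had the largest fitted difference of the 35 genes with all libraries in the fit. It is given 5′ to 3′ on the minus strand, from 250 to 8 bases before the start, at chr11:50210828-50211070 of GRCm38.p6 in RefSeq. The remaining bases before the start lie in the first exon of the GENCODE annotation and are left out. Capitals were reserved for ACGTG, a core of the HIF binding motif, on either strand, and none was found in the 250 bases.
Sqstm1: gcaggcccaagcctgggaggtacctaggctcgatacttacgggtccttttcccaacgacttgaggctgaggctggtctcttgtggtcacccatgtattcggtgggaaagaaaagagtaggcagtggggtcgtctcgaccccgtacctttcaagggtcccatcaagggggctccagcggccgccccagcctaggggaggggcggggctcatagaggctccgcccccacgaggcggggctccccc

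Of the 35 genes, 29 had such a window in the RefSeq table. ACGTG, searched on both strands, was in the 250 bases of 12 of the 29 (41.4%), beside 18.5% of 27025 genes. The windows of the 29 genes had a median GC content of 59.6%, against 52.4% over all genes, and were not matched for it. The palindromic E-box CACGTG, the core of the motif that TFEB and TFE3 bind, was in 3 of the 29 (10.3%), beside 6.86% of all genes. Each CACGTG also holds ACGTG on both strands, so the 2 motifs overlap. TGATGNAA, the motif of ATF4 and CHOP heterodimers, was in 0 of the 29, beside 3.91% of all genes. The E-boxes are shown with their flanks, in capitals, because all 3 belong to genes of the conjugation step described below. The stretches lie at chr6:114670942-114670989 for Atg7, chr10:44268303-44268338 for Atg5 and chr16:45158713-45158783 for Atg3, all on the plus strand of GRCm38.p6 in RefSeq. That of Atg7 lies within the span of the deposited gene, in an intron of its GENCODE transcripts. A match to a motif is a description of sequence and shows no binding.
Atg7: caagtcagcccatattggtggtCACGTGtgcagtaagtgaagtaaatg
Atg5: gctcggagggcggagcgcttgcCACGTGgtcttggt
Atg3: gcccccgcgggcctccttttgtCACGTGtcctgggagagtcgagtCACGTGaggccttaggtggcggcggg

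In the initiation complex all 5 fitted log2 fold changes were above 0, with a median of 0.59. Atg13 (chr2:91674618-91710576), the adaptor that ties ULK1 to FIP200, was at 76.8 CPM in c11, 51.2 in c15 and 85.1 in c22, against 35.1 CPM in mock. All 3 knockout libraries lay above mock, and c15 was the nearest to it. The log2 fold change of Atg13 was 1.02 (SE 0.42, unadjusted p = 0.0547, adjusted p = 1.00 by edgeR). Ulk1 (chr5:110784488-110810097), the kinase of the complex, was at 71.6 CPM in c11, 27.3 in c15 and 61.3 in c22, against 35.4 CPM in mock. Its c15 value lay below mock and the other knockout values above it, so the groups overlapped, and its log2 fold change was 0.59 (SE 0.59, adjusted p = 1.00 by edgeR). Ulk2, the second kinase, was at 54.9 CPM in c11, 31.8 in c15 and 41.8 in c22, against 27.6 CPM in mock (log2 fold change 0.64, SE 0.43), without overlap. Rb1cc1, which encodes FIP200, varied least among knockout libraries, at 63.1 CPM in c11, 65.0 in c15 and 65.7 in c22, against 51.3 CPM in mock (log2 fold change 0.34, SE 0.31). Atg101 was at 17.7 to 19.4 CPM in knockout libraries and 17.9 CPM in mock, a log2 fold change of 0.03.

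The lipid kinase complex held members on both sides of mock. Pik3c3 (chr18:30272747-30348126), which encodes the catalytic subunit VPS34, was at 36.4 CPM in c11, 32.8 in c15 and 33.5 in c22, against 41.4 CPM in mock. Pik3r4 (chr9:105642978-105687657), its regulatory subunit VPS15, was at 26.7 CPM in c11, 28.2 in c15 and 30.2 in c22, against 31.1 CPM in mock. Both genes were below mock in every knockout library, with fitted differences smaller than their SE (log2 fold changes -0.27, SE 0.32, and -0.13, SE 0.34, adjusted p = 1.00 for each by edgeR). Uvrag (chr7:98885021-99141141), which replaces ATG14 in the form of the complex that acts on endosomes, was at 66.5 CPM in c11, 57.5 in c15 and 50.8 in c22, against 39.0 CPM in mock. Its knockout libraries did not overlap mock, with a log2 fold change of 0.58 (SE 0.34, adjusted p = 1.00 by edgeR). Becn1 (chr11:101285952-101302286), the scaffold Beclin 1, was at 91.6 CPM in c11, 125 in c15 and 78.3 in c22, against 75.5 CPM in mock (log2 fold change 0.38, SE 0.38, adjusted p = 1.00 by edgeR). Here c15 was the highest and c22 lay close to mock. The Becn1 locus overlaps Cntd1 on the other strand, which was at 35.6 CPM in c11, 49.6 in c15 and 31.6 in c22, against 29.0 CPM in mock, in the same order of libraries as Becn1. Whether reads of the 2 genes were told apart is not given in the sources used here. Ambra1, a regulator of Beclin 1, and Atg14, the subunit that directs the complex to autophagosome sites, were above mock in all 3 knockout libraries, at log2 fold changes of 0.38 (SE 0.33) for Ambra1 and 0.18 (SE 0.41) for Atg14.

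**Figure D3:**
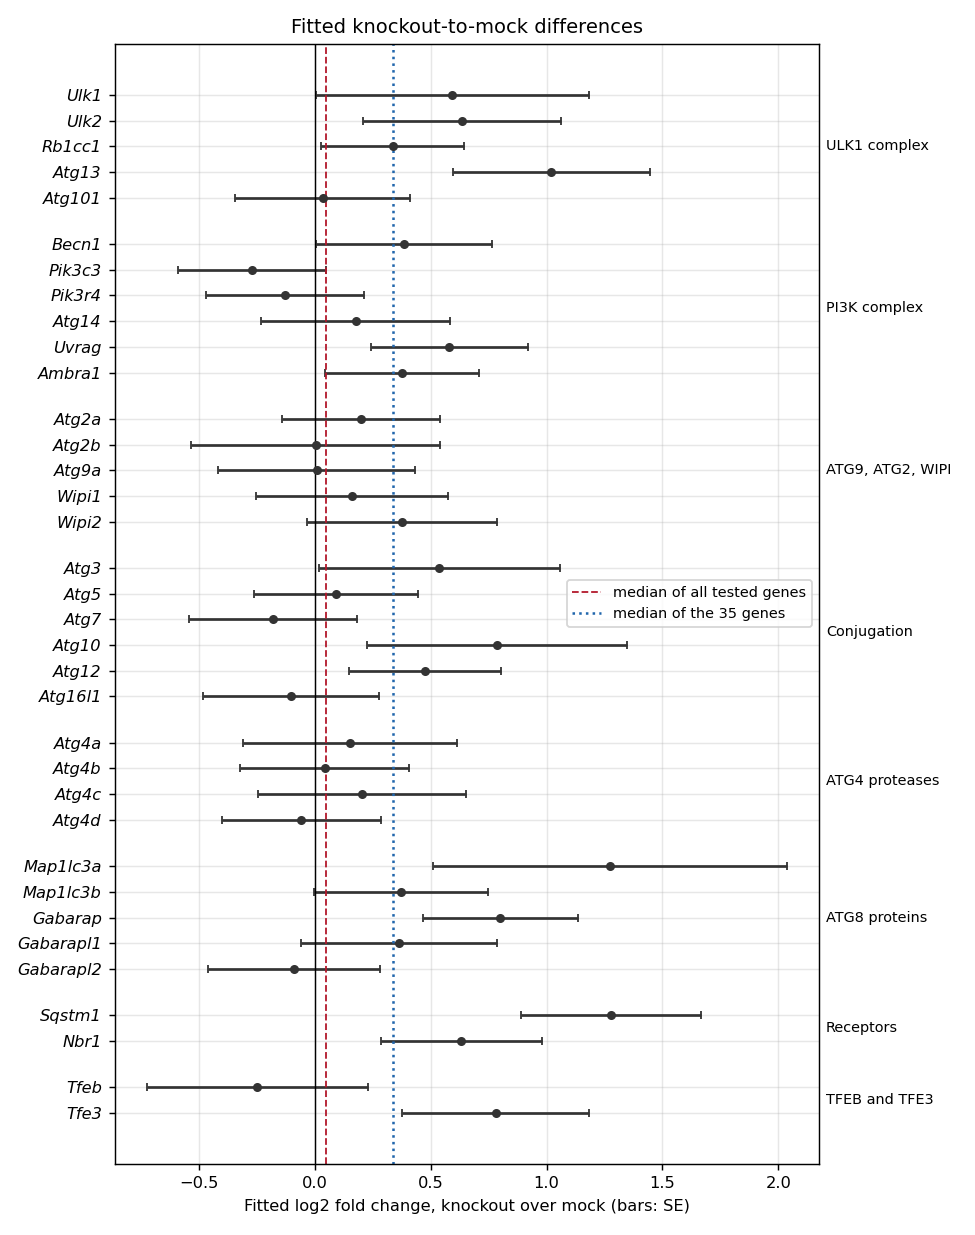
Fitted log2 fold change, knockout over mock, of the 35 genes by role, with bars of 1 SE. The dashed line is the median of all tested genes (0.05) and the dotted line that of the 35 genes (0.34). The bars of 20 genes reach 0, and 3 genes, Sqstm1, Atg13 and Gabarap, lie more than 2 SE from it.

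Among the genes for lipid supply and for proteins that read the phosphatidylinositol mark, fitted values were small. Atg2b (chr12:105616136-105685211), one of a pair of lipid transfer proteins, was at 56.7 CPM in c11, 94.3 in c15 and 37.4 in c22, against 62.7 CPM in mock. The knockout libraries lay on both sides of mock, c15 highest and c22 lowest, and the log2 fold change was 0.00 (SE 0.54, adjusted p = 1.00 by edgeR). Its paralog Atg2a was steadier, at 36.0 to 44.8 CPM in knockout libraries and 35.4 CPM in mock. Per kilobase of transcript, Atg2b made up 54.1% of the pair in c11, 68.9% in c15 and 41.3% in c22, against 60.0% in mock, so that the more abundant of the pair in c22 was Atg2a. Wipi2 (chr5:142627698-142670588), which recruits the conjugation machinery, was at 139 CPM in c11, 99.2 in c15 and 175 in c22, against 107 CPM in mock (log2 fold change 0.38, SE 0.41, adjusted p = 1.00 by edgeR). Its c15 value lay below mock, and so did those of Wipi1 and of Atg9a, the membrane scramblase carried in vesicles to the growing autophagosome. The log2 fold change was 0.16 (SE 0.41) for Wipi1 and 0.01 (SE 0.42) for Atg9a. Ankzf1, antisense to Atg9a, was at 37.6 CPM in c11, 26.1 in c15 and 48.5 in c22, against 51.0 CPM in mock, also lowest in c15.

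The conjugation genes were mixed. Atg3 (chr16:45158785-45188538), the E2-like enzyme that passes ATG8 proteins to lipid, was at 64.4 CPM in c11, 31.6 in c15 and 67.7 in c22, against 37.7 CPM in mock. Libraries c11 and c22 lay above mock and c15 below, and the log2 fold change was 0.54 (SE 0.52, adjusted p = 1.00 by edgeR). Atg7, the E1-like enzyme before it, was at 27.0 CPM in c11, 21.0 in c15 and 22.7 in c22, against 26.7 CPM in mock (log2 fold change -0.18, SE 0.36). Atg5, which forms a conjugate with ATG12, was at 45.4 CPM in c11, 36.9 in c15 and 32.6 in c22, against 36.0 CPM in mock (log2 fold change 0.09, SE 0.35). All 3 genes with an E-box were above mock in c11, Atg7 only just (log2 ratio 0.01). So were all 6 conjugation genes and 29 of the 35, beside 51.7% of all tested genes. The 3 genes lay on both sides of mock in c15 and in c22, where 3 of the 6 conjugation genes were above it in each. Atg12, the ubiquitin-like partner, and Atg10, the E2-like enzyme that joins it to ATG5, were above mock in all 3 knockout libraries, at a log2 fold change of 0.47 (SE 0.33) for Atg12 and 0.79 (SE 0.56) for Atg10. Atg10 had low counts, at 9.22 CPM in c11, 5.99 in c15 and 7.34 in c22, against 4.36 CPM in mock. Atg16l1, which anchors the conjugate to the membrane, was above mock in c11 only (log2 fold change -0.10, SE 0.38).

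The 4 ATG4 proteases, which trim ATG8 proteins before conjugation and release them afterwards, had no member on 1 side of mock in all 3 knockout libraries. Their log2 fold changes ranged from -0.06 for Atg4d to 0.20 for Atg4c. Atg4b (chr1:93751500-93790610) was the most abundant of them per kilobase of principal transcript, though on average not per kilobase of all annotated exons. It was at 73.2 CPM in c11, 51.0 in c15 and 75.1 in c22, against 64.7 CPM in mock (log2 fold change 0.04, SE 0.36, adjusted p = 1.00 by edgeR). Atg4a, Atg4b and Atg4c shared 1 order, with c15 below mock and c11 and c22 above, while Atg4d had the opposite one. Thap4, antisense to Atg4b, was at 76.8 CPM in c11, 67.8 in c15 and 68.6 in c22, against 69.4 CPM in mock, with c15 and c22 alike. Atg4d was at 51.3 CPM in c11, 69.4 in c15 and 53.7 in c22, against 60.6 CPM in mock. It overlaps Kri1 on the other strand, which was at 52.0 CPM in c11, 70.3 in c15 and 43.5 in c22, against 54.3 CPM in mock, again highest in c15. Per kilobase, Atg4d made up 22.5% of the ATG4 transcripts in c11, 36.3% in c15 and 24.0% in c22, against 29.2% in mock.

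The ATG8 proteins, which coat the membrane and bind receptors, are encoded by 5 of the genes. Their summed level was 284 CPM per kilobase of transcript in c11, 220 in c15 and 354 in c22, against 183 CPM per kilobase in mock, so that every knockout library lay above mock and c15 nearest to it. Gabarap (chr11:69991143-69994951) was the most abundant of the 5 per kilobase in each library. It was at 189 CPM in c11, 146 in c15 and 191 in c22, against 101 CPM in mock, a mean of 175 ± 25.7 CPM (SD, n = 3), without overlap. Its log2 fold change was 0.80 (SE 0.33, unadjusted p = 0.0556, adjusted p = 1.00 by edgeR). Map1lc3a (chr2:155276297-155278073), which encodes LC3A, had the widest spread of all 35 genes between knockout libraries. It was at 60.5 CPM in c11, 24.0 in c15 and 89.8 in c22, against 24.1 CPM in mock, with a log2 fold change of 1.27 (SE 0.76, adjusted p = 1.00 by edgeR). The c15 value equalled that of mock to within 1 CPM, and the other knockout values were well above both. Its share of the family was 19.2% in c11, 9.84% in c15 and 22.8% in c22, against 11.9% in mock. Map1lc3b, which encodes the LC3B used as a marker of autophagosomes, was at 88.5 CPM in c11, 75.6 in c15 and 116 in c22, against 72.5 CPM in mock (log2 fold change 0.37, SE 0.38). Gabarapl1 was at 67.8 CPM in c11, 70.9 in c15 and 112 in c22, against 65.3 CPM in mock (log2 fold change 0.36, SE 0.42). The antisense RNA 1700101I11Rik, which overlaps Gabarapl1, was at 17.6 CPM in c11, 21.7 in c15 and 29.7 in c22, against 18.0 CPM in mock, in the same order of knockout libraries as Gabarapl1. Zcchc14, antisense to Map1lc3b, had another order, at 112 CPM in c11, 116 in c15 and 92.1 in c22, against 107 CPM in mock. Gabarapl2 lay below mock in c11 and c15 and above it in c22 (log2 fold change -0.09, SE 0.37). In all 5 genes c22 was the highest knockout library and lay above mock, with c11 close to it for Gabarap. The order of c11 and c15 differed within the family.

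**Figure D4:**
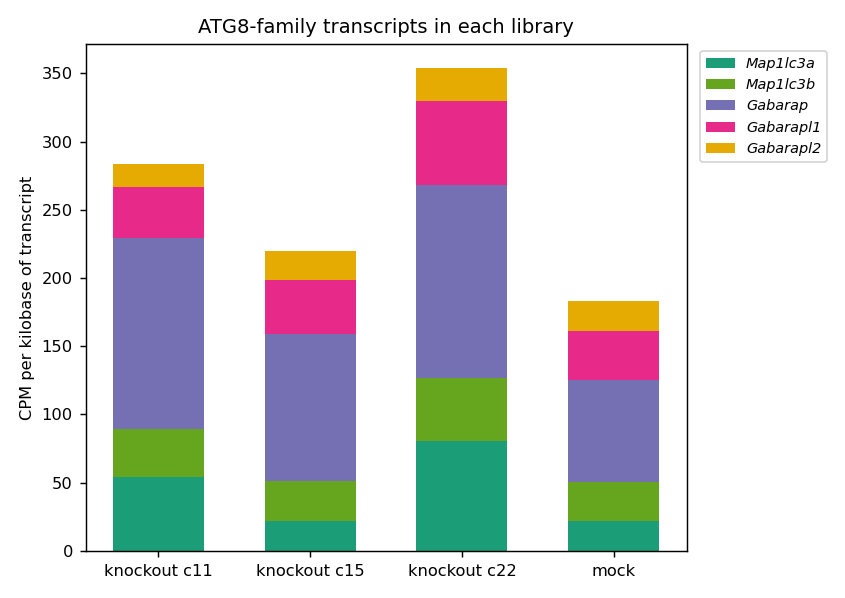
Summed level of the 5 ATG8-family transcripts in each library, in CPM per kilobase of transcript, with the knockout libraries left of mock. The bars reach 284 in c11, 220 in c15, 354 in c22 and 183 in mock, and the Map1lc3a segment is thin in c15 and in mock.

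The transcription factors TFEB and TFE3, which enter the nucleus when mTORC1 is inactive and bind lysosomal and autophagy genes, lay on opposite sides of mock. Tfe3 (chrX:7762560-7775202) was at 69.9 CPM in c11, 48.8 in c15 and 77.8 in c22, against 38.3 CPM in mock (log2 fold change 0.78, SE 0.40, adjusted p = 1.00 by edgeR). Tfeb (chr17:47737030-47792419) was low throughout, at 6.35 CPM in c11, 6.52 in c15 and 6.04 in c22, against 7.51 CPM in mock (log2 fold change -0.25, SE 0.48, adjusted p = 1.00 by edgeR). In neither gene did the knockout libraries overlap mock, as also held for 21.0% of all tested genes above it and 22.5% below. The Tfeb values rest on few counts, 82 in c11, 86 in c15 and 79 in c22, against 93 in mock. Per kilobase, Tfe3 was the more abundant of the pair in every library.

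Of the knockout libraries left out in turn, c15 moved the members' p-values furthest. Without it, 7 of the 35 genes were higher at an unadjusted p under 0.05, namely Map1lc3a, Sqstm1, Atg13, Gabarap, Tfe3, Ulk1 and Atg3, where 1 was with all libraries. The smallest adjusted p was then 0.368, for Map1lc3a, whose log2 fold change was 1.65 (SE 0.42). None was called. Of the 15479 genes then tested, 584 were higher and 754 lower at that level, where 176 and 402 of 15706 were with all libraries.

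A wider set of 93 genes was chosen by role around the 35, and 92 of them passed the filter. None was called by edgeR or DESeq2. At an unadjusted p under 0.05, edgeR gave 2 higher (2.17%) and 1 lower (1.09%), near the 1.12% and 2.56% of all tested genes. Of the 92, 34 lay above mock in all 3 knockout libraries (37.0%) and 7 below (7.61%), beside 21.0% and 22.5% of all tested genes, around a median log2 fold change of 0.24. Optn (chr2:5020642-5064051), which encodes the receptor optineurin, was at 17.0 CPM in c11, 6.52 in c15 and 13.7 in c22, against 2.18 CPM in mock. All knockout libraries lay above mock and c15 was the nearest, with a log2 fold change of 2.50 (SE 0.82, unadjusted p = 0.0233, adjusted p = 1.00 by edgeR and 0.159 by DESeq2). Tmem41b (chr7:109972187-109986929), a scramblase of the endoplasmic reticulum needed for autophagosome growth, was at 37.6 CPM in c11, 41.0 in c15 and 43.5 in c22, against 21.8 CPM in mock. Its knockout libraries lay close together (log2 fold change 0.90, SE 0.35, adjusted p = 1.00 by edgeR). Atg9b (chr5:24384181-24392143), the paralog of Atg9a, was at 0.23 CPM in c11, 0.61 in c15 and 0.92 in c22, against 3.71 CPM in mock. These are few counts, with the c11 value at the level of 3 counts (log2 fold change -2.64, SE 0.73, unadjusted p = 0.0120, adjusted p = 0.766 by edgeR).

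In lysosomal genes, downstream of the autophagosome, c15 was again often the lowest knockout library. Of 22 lysosomal genes, 16 had their lowest knockout value in c15 (72.7%, beside 37.0% of all tested genes), and their summed level was 3631 CPM in c11, 2458 in c15 and 3936 in c22, against 2794 CPM in mock. Only 4 of the 22 were above mock in all 3 knockout libraries (18.2%, beside 21.0% of all tested genes), and 2 were below (9.09%, beside 22.5%). Macrophages also carry lysosomal genes, and their markers summed to less in every knockout library, as given above; their part was not tested. Npc1, the lysosomal cholesterol exporter, was at 60.1 CPM in c11, 40.8 in c15 and 39.1 in c22, against 26.0 CPM in mock, while Ctsa, which encodes the protease cathepsin A, was at 200, 108 and 205 CPM, against 208 CPM in mock. The proton pump that acidifies the lysosome, the V-ATPase, had 11 of 15 genes above mock in all 3 knockout libraries (73.3%, beside 21.0% of all tested genes) and none below (beside 22.5%), around a median log2 fold change of 0.32. Its subunit gene Atp6v1g1 was at 196 CPM in c11, 137 in c15 and 190 in c22, against 106 CPM in mock (log2 fold change 0.72, SE 0.36), and Atp6v0e had a log2 fold change of -0.04.

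Genes for fusion with the lysosome had a median log2 fold change of 0.11, with 6 of 14 above mock in all 3 knockout libraries (42.9%, beside 21.0% of all tested genes). Ykt6, a fusion SNARE, was at 113 CPM in c11, 80.6 in c15 and 81.9 in c22, against 56.1 CPM in mock (log2 fold change 0.71, SE 0.36), and Snap29, another SNARE, had a log2 fold change of -0.25 (SE 0.46). Genes of the AMPK and mTORC1 kinases that act on ULK1 had a median of 0.21, with 3 of 17 above mock in all 3 (17.6%) and 2 below (11.8%), neither share above that of all tested genes (21.0% and 22.5%). The Rag GTPases that bring mTORC1 to the lysosome differed from each other. Rragc was at 111 CPM in c11, 106 in c15 and 93.5 in c22, against 75.6 CPM in mock (log2 fold change 0.46, SE 0.31). Rragd was at 34.9, 8.41 and 22.6 CPM in those libraries, against 41.6 CPM in mock (log2 fold change -0.92, SE 0.69). Among receptors other than Optn, Ncoa4, the receptor for ferritin, was below mock in all 3 knockout libraries (log2 fold change -0.34, SE 0.33). None of these genes passed the test, each with an adjusted p of 1.00 by edgeR.

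**Figure D5:**
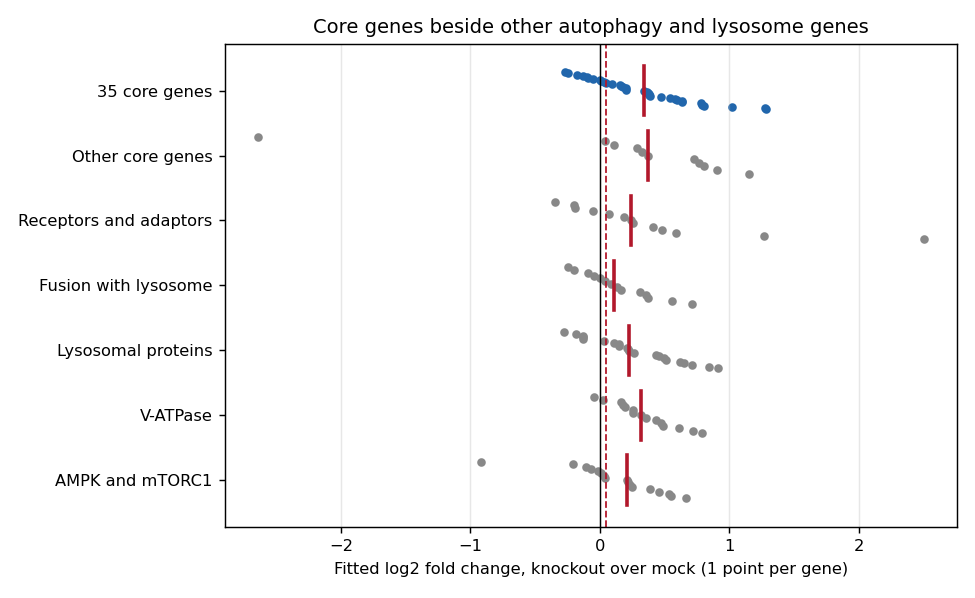
Fitted log2 fold change, knockout over mock, of the 35 core genes and of 6 other lists, 1 point per gene, with a vertical bar at each list's median and a dashed line at the median of all tested genes (0.05). The list medians lie between 0.11 and 0.37, and the single points furthest out are Optn (2.50) and Atg9b (-2.64).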

How the data were processed

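Libraries were prepared from poly(A) RNA with a directional kit, per the labels. The authors deposited raw read counts for each Ensembl gene. The tools named were HISAT2 2.1.0, featureCounts 1.6.3, Trimmomatic 0.38, FastQC 0.11.7 and SAMtools 1.9, with the build GRCm38, per the submitters' processing notes. The settings for strand and multiply mapped reads are not given in the sources used here, so reads of paralogs and of overlapping genes may be shared. Of the 35 genes, 14 overlap another gene with counts, and for 6 (Becn1, Atg9a, Atg4b, Atg4d, Map1lc3b and Gabarapl1) that gene is antisense with over 1000 counts in all.

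The 35 genes, the wider lists and the markers were chosen with earlier results of these data known. CPM is the count per 1000000 counts of its column. Levels per kilobase use the longest principal transcript of GENCODE M21. Averaged over the libraries, levels per kilobase of all annotated exons were 8.09 CPM for Atg4d and 7.97 CPM for Atg4b. They were 5.10 CPM for Atg2a and 4.67 CPM for Atg2b, so the ranks in these families depend on the length used. Genes were kept with filterByExpr (15706), scaled by TMM and tested with the robust quasi-likelihood test of edgeR 4.0.16 in R 4.3.3 (2-sided, Benjamini-Hochberg over all tested genes, threshold 0.05). Mock was taken to have the spread of the knockout libraries, with 2 residual degrees of freedom, a prior of 3.77 and a biological coefficient of variation of 0.442. The alternatives used DESeq2 1.42.0 and limma 3.58.1. In simulated data of 15251 genes the test found 29 of the 100 genes set to a 4-fold change and 80 of the 100 set to a 16-fold change, and made 18 false calls. Library pairs differed by a chi-square per gene of 44.3 (c15 and mock) to 82.8 (c15 and c22), so none was a copy.

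Members given in full were those above or below mock in all 3 knockout libraries with the smallest p (up to 6 per direction), the 3 with the widest range among knockout libraries and the most abundant per kilobase in each role. Each wider list gave its member with the smallest p per direction. Other members' values, and those of overlapping genes, were chosen after they were seen.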

Additional observations from a re-analysis of the deposited data

How the results depend on the processing

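No member was called in either direction under any of the 13 alternatives (RLE or upper quartile factors, no filter, a mean of at least 1 CPM, DESeq2, limma-voom, edgeR's older quasi-likelihood method, each knockout library left out, each pair of knockout libraries summed). The older method was added after the data were seen. The number of members higher at an unadjusted p under 0.05, 1 as reported, was 2 with no filter and 3 with DESeq2. It was 3 with c11 and c15 summed and 5 with c15 and c22 summed. Over all tested genes that number rose too, from 176 of 15706 as reported to 242 of 24952 with no filter and 333 of 15706 with DESeq2. With those pairs summed, it was 328 of 15514 and 478 of 15464. When single knockout libraries were left out, 1 to 7 members were higher, with 7 without c15. Over all tested genes, 119 of 15467 (without c11) to 584 of 15479 (without c15) were higher over these omissions. The members' median log2 fold change ranged from 0.19 to 0.33 over these omissions, lowest without c22. Of 208 values computed for 16 named members, 11 changed sign. Atg2b was at -0.0004 with RLE factors, -0.0262 with upper quartile factors, -0.0047 with a mean of at least 1 CPM, -0.0005 with DESeq2, -0.10 with limma-voom, -0.42 without c15 (0.26 without c22), -0.16 with c11 and c15 summed and -0.0453 with c15 and c22 summed. Atg4b was at -0.01 without c11, -0.0664 without c22 (0.20 without c15) and -0.0523 with c11 and c22 summed. The cause was not tested. Over all tested genes 114 were called by DESeq2, 4 with no filter, 0 by limma-voom and 1 as reported. No paired analysis was possible because mock has 1 library and the knockout columns carry no replicate number. The single mock library limits every comparison, since its own deviation enters all 3 ratios.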

Other observations

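Some genes of the wider lists stood out in 1 knockout library, and they were chosen after their values were seen. Hexa, the alpha subunit of lysosomal hexosaminidase, was at 3.64 CPM in c11, 60.5 in c15 and 93.3 in c22, against 49.3 CPM in mock. Its value was low in c11 alone, from 47 counts there against 611 in mock. Mtor, the kinase that restrains ULK1, was at 31.5 CPM in c11, 78.4 in c15 and 24.8 in c22, against 31.1 CPM in mock, and so was high in c15 alone. Stbd1, a receptor that binds glycogen, was at 155 CPM in c11, 58.2 in c15 and 58.3 in c22, against 37.5 CPM in mock, highest in c11. Their log2 fold changes were 0.10 (SE 1.35), 0.53 (SE 0.71) and 1.27 (SE 0.69), each with an adjusted p of 1.00 by edgeR. A difference between single libraries has no replicate check here.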
